A study of Rattus norvegicus with 6 samples.

Results

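The genes described here encode the proteins of the cytosolic ribosome. They were taken from the deposited count table of the Tug1 knockdown experiment by symbol: names made of Rpl or Rps with a number and an optional a, x, y or l ending, the 3 acidic stalk names Rplp0 to Rplp2, and Rpsa, with S6 kinases and names marked as pseudogenes left out. The rule found 95 of the 40456 genes in the table, 39 named for the small (40S) and 56 for the large (60S) subunit, and used no measured value. Of these, 84 had enough counts to be tested. The remaining 11, all copies or Rps4y2, had at most 15 counts in any library, and 3 of them were at 0 in all libraries.

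The cells were H9c2, a line of rat cardiomyoblasts, labelled as wild type in genotype and as cardiomyocytes in cell type. Both groups had been held for 5 days in medium with 1% serum and 1 µM retinoic acid and then received 25 nM locked nucleic acid gapmer over 24 h, that is, an antisense oligonucleotide that makes RNase H cut its target RNA. The control group (3 libraries) received a negative control gapmer and the knockdown group (3 libraries) a single gapmer directed at Tug1, a long non-coding RNA, so what follows comes from 1 cell line and 1 targeting sequence. Poly-A RNA was sequenced. The labels number the replicates 1 to 3 in each group but do not say whether these were separate cultures, so p-values measure the spread between these libraries, which may be technical.

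A ribosome holds 1 copy of nearly every ribosomal protein, and cells make these proteins in matched amounts from genes scattered over the chromosomes. Most of their mRNAs begin with a C followed by a run of pyrimidines, the 5′ terminal oligopyrimidine (TOP) tract, through which the kinase mTOR and the RNA-binding protein LARP1 control their translation and stability. In muscle cells, as elsewhere, ribosome number sets the capacity for protein synthesis and follows growth signals. Poly-A sequencing reads the amount of mRNA and not its translation, so ribosome number and protein output were not measured here. In such bulk samples a lower level could come from fewer cells with the mRNA or from less mRNA per cell, which cannot be told apart.

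The start sites of genes with low and high fold changes, and of the stalk, are shown with the tract where one was found. They are the 15 bases before and the 15 bases from the annotated start, 5′ to 3′, as given by RefSeq for the rat assembly GRCr8. Capitals mark a tract, searched as a C followed by at least 4 further pyrimidines, from the first such C within 10 bases of the start. The run of pyrimidines can reach further upstream than the capitals, as in Rpl13a and Rpl5, so they do not mark where it begins. The first set holds 3 stalk genes and 4 of the genes that fell furthest.
Rplp0: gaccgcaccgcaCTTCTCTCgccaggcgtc (chr12:46718376-46718405, minus strand)
Rplp1: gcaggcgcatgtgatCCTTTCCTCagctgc (chr8:71290858-71290887, minus strand)
Rplp2: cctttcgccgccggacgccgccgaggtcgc (chr1:205975906-205975935, plus strand)
Rpl13a: cctcttCCTTTCCTaggcggctgccgaaga (chr1:104748899-104748928, minus strand)
Rps28: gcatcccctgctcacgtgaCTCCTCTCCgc (chr7:15311319-15311348, minus strand)
Rpl41: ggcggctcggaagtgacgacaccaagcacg (chr7:1563483-1563512, minus strand)
Rpl26: ctcgtgtcaacttacagaaccggaagtcgc (chr10:54109677-54109706, plus strand)
The second set holds genes that rose, did not pass the test, or fell less than the median member.
Rpsa: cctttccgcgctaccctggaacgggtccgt (chr8:128728864-128728893, plus strand)
Rpl5: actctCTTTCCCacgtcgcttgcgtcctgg (chr14:1995211-1995240, minus strand)
Rpl11: ggggacttgaagcttgtttggtgctgggga (chr5:153560788-153560817, minus strand)
Rps18: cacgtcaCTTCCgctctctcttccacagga (chr20:4933730-4933759, plus strand)
Rpl7l1: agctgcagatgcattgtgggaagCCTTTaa (chr9:21695703-21695732, plus strand)
Of the 84 tested genes, 54 matched a promoter entry under a name that belongs to a single gene of that assembly, and 38 of these 54 (70.4%) had a tract. The share was 28.9% over all 33469 promoter windows and 30.6% over the 10466 other tested genes with an entry. In Rplp1 the tract begins at the annotated start itself, as in the textbook form, and in Rplp0 it begins 3 bases before it. In Rpsa, Rpl41, Rpl26, Rplp2 and Rpl11 no tract began within 10 bases of the annotated start, which says only that the search found none there. The printed bases of Rpsa and Rplp2 open with such a run in small letters, 15 bases before the start and so outside the search.

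The Tug1 RNA itself checked the labels. The controls held 713, 672 and 718 counts of it, and the libraries labelled knockdown 164, 152 and 165 (log2 fold change -2.19 with SE 0.0786, adjusted p 4.39e-16 by edgeR). Library totals were between 12978548 and 13544337 counts. Of 14216 tested genes, 61.7% were called changed by edgeR (quasi-likelihood test, adjusted p under 0.05), so a call by itself is common in these data. Of 13 cardiomyocyte markers only 5 had enough counts to be tested, and Myh6, Myh7, Nkx2-5, Ryr2 and Nppb had at most 3 counts in every library. The cardiomyocyte list summed to 360 to 392 CPM (counts scaled to library size) in controls and 420 to 472 CPM after knockdown. Most of that sum was Tnnt2, at 342, 335 and 369 CPM in controls and 439, 391 and 402 CPM after knockdown. Tnnt2 (log2 fold change 0.24), Actc1 (0.97) and Myl2 (1.23) rose, and Actn2 (0.28) and Gata4 (-0.26) did not pass. Of 11 skeletal myotube markers, all tested, 9 rose (81.8%, against 30.8% of all tested genes) and 1, Myod1, fell (log2 fold change -0.32). Their summed level was 1004 to 1010 CPM in controls and 1473 to 1561 CPM in knockdown libraries. Fibroblast markers summed to 43814 to 45162 CPM in controls and 41192 to 43997 CPM after knockdown, mostly collagens. Within that list Col3a1 (0.47) and Dcn (0.57) rose and Col1a1 (-0.23), Thy1 (-0.40) and Postn (-0.47) fell. Col1a2 (-0.08) and Lum (-0.06) did not pass. Endothelial markers (2.81 to 4.47 CPM over all libraries, with Pecam1, Cdh5 and Kdr at most 3 counts) were nearly absent. Of the macrophage markers Ptprc and Adgre1 were at 0 and the list summed to 77.8 to 81.4 CPM in controls and 49.7 to 50.1 CPM after knockdown. That sum followed Cd14, which fell (log2 fold change -1.03), while Cd68 rose (1.09) and Csf1r was higher in every knockdown library without passing the test (0.21). The part of these marker shifts in the results below was not tested.

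One library stood apart for the ribosomal protein genes. Relative to the control mean, the median tested member was at a log2 level of 0.00, -0.02 and 0.02 in controls 1 to 3 and of -0.23, -0.28 and -0.41 in knockdown replicates 1 to 3. Of the 76 members with a mean of at least 100 CPM, 75 had their lowest knockdown value in replicate 3. The same was not counted for other genes at that level. Knockdown replicate 3 therefore adds to the size of the difference, and values without it are given beside the main results.

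After knockdown most of the ribosomal protein mRNAs were lower, by a modest amount. Of the 84 tested members, 71 (84.5%) fell at an adjusted p under 0.05 in edgeR's quasi-likelihood test, against 30.9% of all tested genes called lower. Only 1, Rpsa, rose, against 30.8% of all tested genes called higher, and 12 did not pass. The median log2 fold change of the tested members was -0.29, against 0.00 for all tested genes. The members that fell were left at 65.8% to 91.6% of their control level, with a median of 80.7%. In 71 members no knockdown value reached any control value, all being lower, against 32.6% of all tested genes, and in 3 (Rpsa, Rpl7l1 and Rpl31l4) every knockdown value was higher, against 33% of all tested genes. Without knockdown replicate 3 the count was 66 and the median -0.24, and all 66 were among the 71. There 28.6% of all tested genes were called lower. When the trend of fold change with gene span, described further on, was removed, 39 of 73 members with a span were lower and the median was -0.11. Of all genes tested in that fit, 31.8% were called lower.

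The SD of the members' log2 fold changes was 0.158, against 0.646 over all tested genes. For the 76 members at a mean of at least 100 CPM it was 0.139, against 0.418 over the 2236 tested genes at that level. An absolute log2 fold change of 1 was reached by 49 of those 2236 genes and by 0 of the 84 members. Among the 71 that fell, 2 lay below -0.5, 52 between -0.5 and -0.25, and 17 above -0.25. SEs of single members that fell were 0.0406 to 0.0638.

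**Figure D1:**
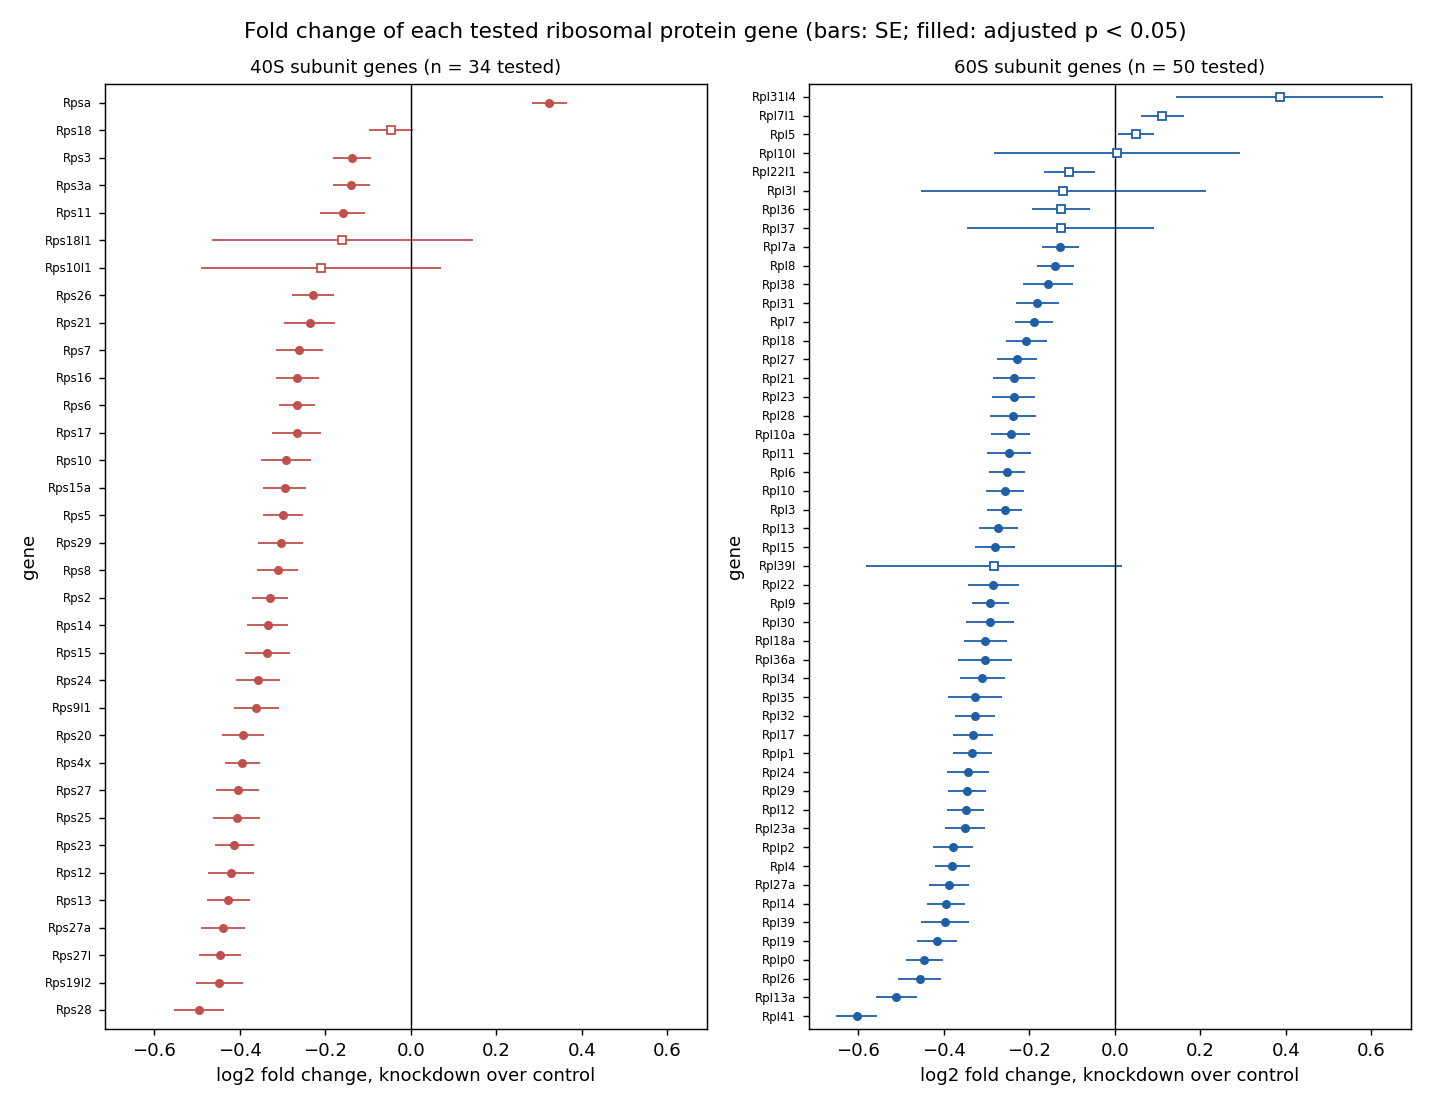
Log2 fold change of knockdown over control (horizontal axis) for each of the 34 tested 40S and 50 tested 60S genes (vertical axis), with SE bars; filled circles were called by edgeR (adjusted p under 0.05) and open squares were not. All filled points but Rpsa (0.32) lie left of 0, from -0.60 for Rpl41 to -0.13 for Rpl7a.

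High abundance makes a small difference easier to call, and most members are abundant. Of the 76 members at a mean of at least 100 CPM, 71 fell (93.4%), against 45.5% of the 2236 tested genes at that level, and 1 rose, against 31.1%. In the same 71 the groups did not overlap, against 46.5% of genes at that level. The median log2 fold change was -0.30 for these members and -0.07 for all genes at that level. The other 8 tested members were Rpl22l1 and 7 genes with means of 1.13 to 4.57 CPM, and none of the 8 passed the test. Rpl31l4, a copy with 1.69, 2.09 and 2.16 CPM in controls and 2.90, 2.52 and 2.34 CPM after knockdown, had the highest log2 fold change of all tested members (0.39, edgeR adjusted p 0.173). For those 7 the counts were 11 to 77 per library and the SEs 0.219 to 0.333, so a drop of the size seen in the abundant members was not detectable at this depth.

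**Figure D2:**
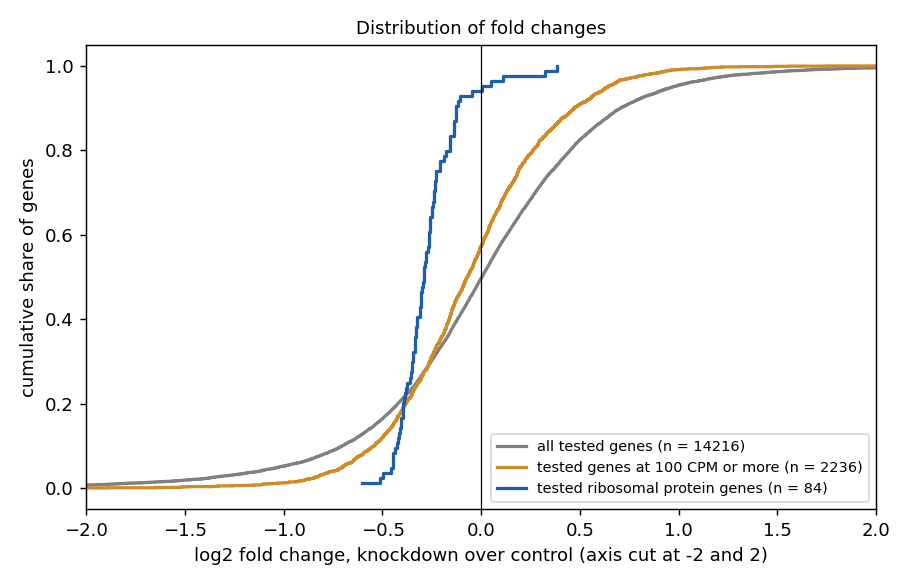
Cumulative share of genes (vertical axis) by log2 fold change of knockdown over control (horizontal axis, drawn from -2 to 2) for all 14216 tested genes, the 2236 at 100 CPM or more and the 84 tested ribosomal protein genes. The curve for the ribosomal protein genes is steep and lies around its median of -0.29, and the curve for abundant genes crosses its middle at -0.07.

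As a share of each library, members took 3.70%, 3.63% and 3.70% of the counts in controls 1 to 3 and 3.23%, 3.15% and 2.92% in the 3 knockdown libraries. The groups did not overlap. The mean went from 3.68% ± 0.0396 to 3.10% ± 0.163 (SD, n = 3), or to 84.3% of the control share, and to 86.8% of it without knockdown replicate 3. Genes of the 40S subunit held 1.44% ± 0.0231 of the counts in controls and 1.23% ± 0.0691 in knockdown libraries, and genes of the 60S subunit 2.24% ± 0.0167 and 1.87% ± 0.0941 (SD, n = 3). The 40S sum was left at 85.7% and the 60S sum at 83.4% of its control share. The ratio of 60S to 40S counts had a mean of 1.55 ± 0.0138 in controls and 1.51 ± 0.00939 after knockdown (SD, n = 3), and no knockdown library reached a control library, at a mean of 97.3% of the control ratio. The 40S sum includes Rpsa, the only member that rose. With Rpsa left out, the members held 3.61% of the counts in controls and 3.01% after knockdown. That is 83.4% of the control share, as for the 60S sum alone. The lower ratio therefore does not show that the other 40S genes fell less than the 60S genes.

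**Figure D3:**
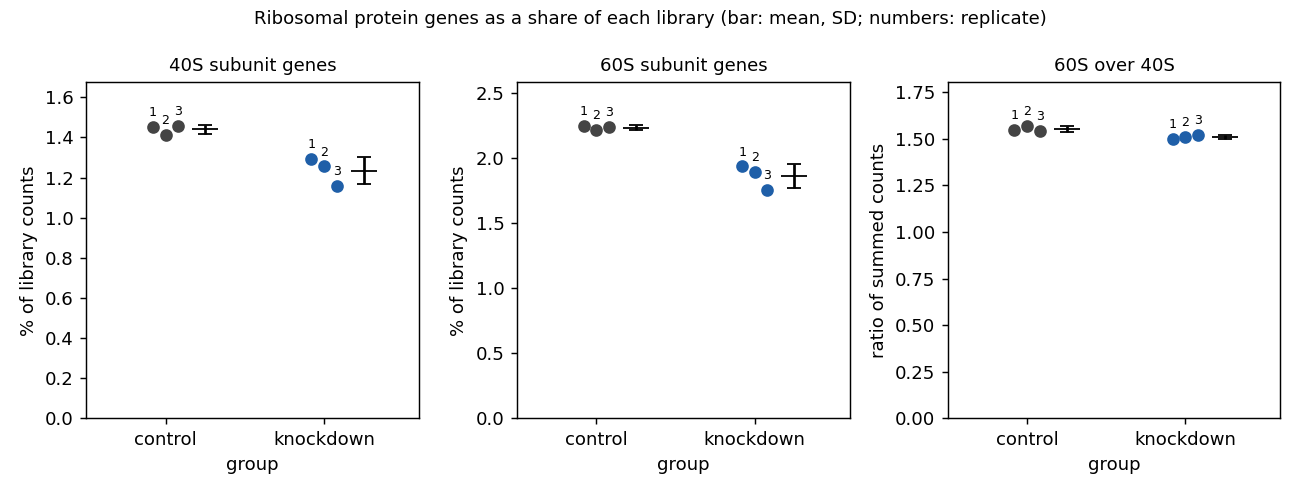
Percent of each library's counts in 40S genes and in 60S genes, and the ratio of both sums (vertical axes from 0), for control and knockdown libraries (horizontal axis); numbered points are replicates, and the mark beside them is the mean with the SD. Knockdown libraries lie at 1.16% to 1.29% for 40S and 1.76% to 1.94% for 60S genes, below all control libraries, and replicate 3 is lowest in both.

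In the small subunit, 30 of 34 tested members fell (88.2%, and 93.8% of its 32 members at 100 CPM or more) and 1 rose. Of all tested genes at that level 45.5% fell, and the counts by part of the ribosome below stand beside these shares. The head of the 40S, which holds proteins around the entry and exit of the mRNA and contacts to the transfer RNA, had 12 of 13 tested members lower, from -0.50 for Rps28 to -0.14 for Rps3. Rps28, a small protein of the head near the path of the mRNA, had 265, 251 and 261 CPM in controls 1 to 3 and 195, 195 and 162 CPM in knockdown replicates 1 to 3. No knockdown value reached a control value, and the log2 fold change was -0.50 (SE of 0.0583, adjusted p by edgeR 1.29e-07), or -0.41 without knockdown replicate 3. Rps27a, made as a fusion with ubiquitin, was at 570 ± 30.8 CPM in the control and 421 ± 29.8 CPM in the knockdown group (SD, n = 3), with log2 fold change -0.44 (SE of 0.0514, adjusted p by edgeR 1.20e-07). Rps18 was the exception in the head. It had 387, 380 and 392 CPM in controls and 391, 395 and 338 CPM after knockdown, so that knockdown replicates 1 and 2 lay at the upper end of the control range or above it and replicate 3 below it. Its log2 fold change was -0.05 (SE of 0.0515, adjusted p by edgeR 0.456), and 0.03 without knockdown replicate 3. Rps3, Rps13, Rpl31, Rpl36 and Rpl7a are outside the naming rule and were chosen, as ends of their groups, after their values were seen.

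The body and platform of the 40S had 15 of 16 tested members lower, with Rps13 at -0.43 as the lowest, and held the only member that rose. Rps2, on the solvent side near the mRNA entry and among the 5 members with the most counts, was at 1627 ± 44.9 CPM in the control and 1295 ± 43.4 CPM in the knockdown group (SD, n = 3), with log2 fold change -0.33. Rpsa, which sits on the platform near the mRNA exit and is also known as the laminin receptor precursor, had 707, 709 and 710 CPM in control replicates 1 to 3. In knockdown replicates 1 to 3 it had 881, 915 and 867 CPM. All knockdown libraries were higher, and the means were 709 ± 1.42 and 888 ± 24.4 CPM (SD, n = 3). The log2 fold change was 0.32 (SE of 0.0407, adjusted p by edgeR 3.33e-07), to 125% of the control level. It was 0.34 without knockdown replicate 3 and passed the test as higher in every alternative tried, each scaling included.

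**Figure D4:**
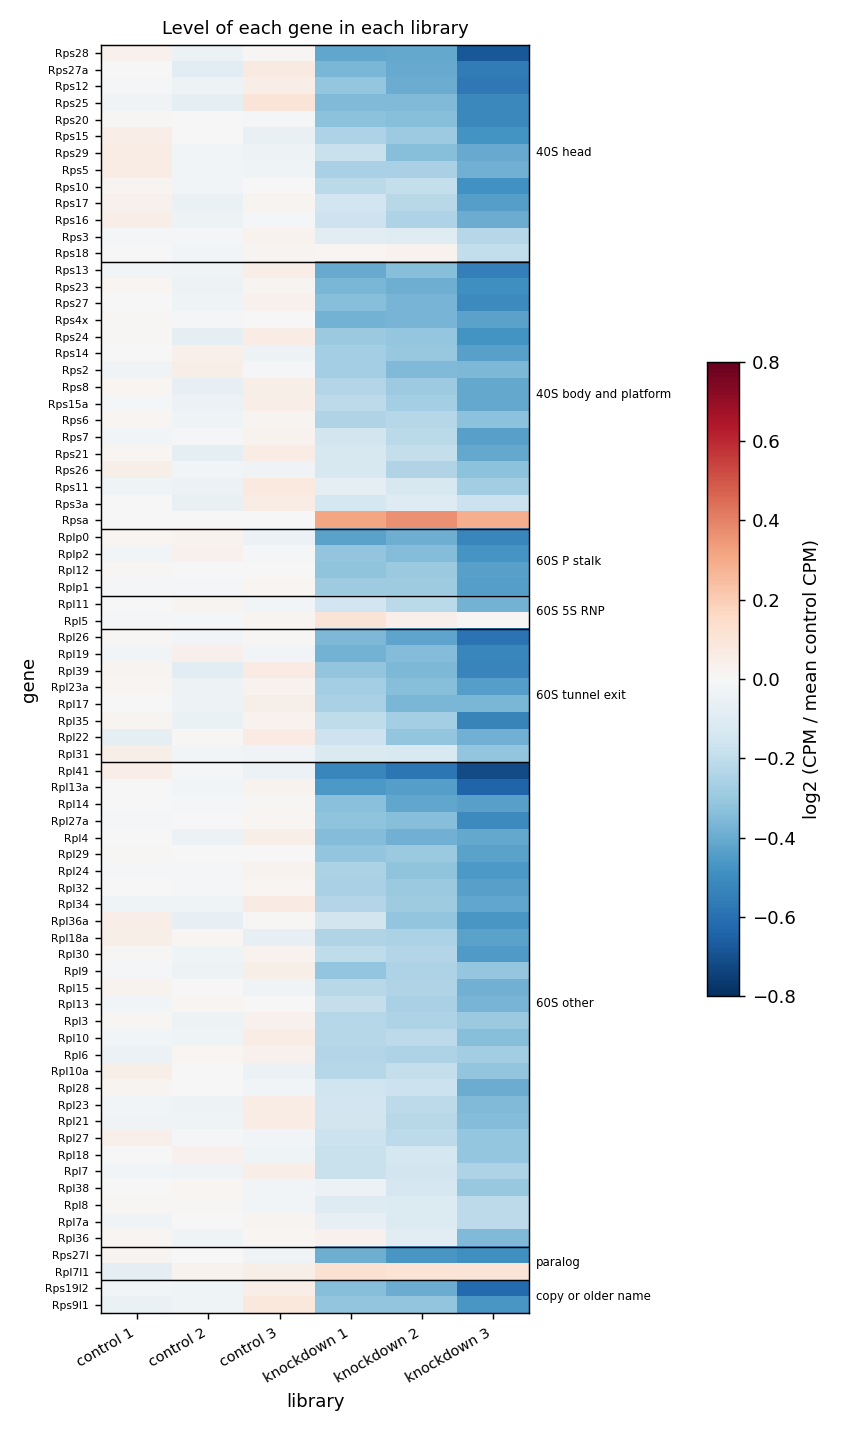
Level of the 76 members at 100 CPM or more (rows, grouped by place in the ribosome) in each of the 6 libraries (columns), as log2 of CPM over the mean control CPM; blue is lower and red is higher. Knockdown columns are blue except for Rpsa, Rpl5, Rpl7l1 and part of Rps18 and Rpl36, and replicate 3 is the darkest for nearly every row.

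In the large subunit, 41 of 50 tested members fell (82%, and 93.2% of its 44 members at 100 CPM or more) and 0 rose. At an unadjusted p under 0.05, 1 member of it, Rpl7l1, was higher, and DESeq2 and limma-voom each called only 1 of all members higher, Rpsa. All 4 stalk genes fell. The stalk, built from Rplp0, the Rplp1 and Rplp2 dimers and the neighbouring Rpl12 at its base, recruits the elongation factors. Rplp0, often used as a reference gene in quantitative PCR, had 1790, 1803 and 1711 CPM in controls 1 to 3 and 1311, 1351 and 1232 CPM in the 3 knockdown libraries. The groups were well apart, with a log2 fold change of -0.45 (SE of 0.0432, adjusted p by edgeR 6.16e-09). Rplp2 was at -0.38, Rpl12 at -0.35 and Rplp1 at -0.33, with SEs of 0.0440 to 0.0464, so these 3 lay within an SE of each other.

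The 5S particle, in which Rpl5 and Rpl11 carry the 5S ribosomal RNA into the large subunit and can instead bind the p53 regulator MDM2, had 1 of 2 members lower. Rpl5 had 452, 454 and 464 CPM in controls and 489, 469 and 459 CPM after knockdown, with overlapping groups and log2 fold change 0.05 (SE of 0.0426, adjusted p by edgeR 0.320). When libraries were scaled by their totals instead of by TMM factors it was called higher (0.10, edgeR adjusted p 0.0389). Rpl11 had 255, 260 and 252 CPM in controls and 230, 220 and 197 CPM after knockdown, and fell by 0.25 on the log2 scale (SE of 0.0517, adjusted p by edgeR 0.000251). With the span trend removed, Rpl11 did not pass (-0.08, edgeR adjusted p 0.135) and Rpl5 was called higher (0.17, edgeR adjusted p 0.00107). A test of the difference between both genes was not made.

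All 8 genes of the rim and wall of the exit tunnel, where the nascent chain leaves the ribosome, fell, from -0.46 for Rpl26 to -0.18 for Rpl31. Rpl26, a rim protein, had 460, 452 and 461 CPM in controls and 356, 341 and 304 CPM after knockdown (SE of 0.0504, adjusted p by edgeR 5.13e-08). Of the 30 other tested 60S proteins, 28 fell. Rpl41, whose product is among the shortest proteins known, had 1157, 1105 and 1078 CPM in controls and 774, 747 and 678 CPM after knockdown. It kept 65.8% of its control level, log2 fold change -0.60 (SE of 0.0479, adjusted p by edgeR 2.27e-10), the lowest of all tested members, and was at -0.55 without knockdown replicate 3. Rpl13a, which in other systems leaves the ribosome to silence inflammatory mRNAs, had 1020, 1007 and 1042 CPM in controls and 743, 754 and 658 CPM after knockdown, with log2 fold change -0.51 (SE of 0.0477, adjusted p by edgeR 3.33e-09). Rpl3, of the peptidyl transferase region, went from 981 ± 26.0 to 821 ± 20.4 CPM (SD, n = 3), at -0.26. Rpl36 was at 170, 164 and 170 CPM in controls and 172, 158 and 131 CPM after knockdown and did not pass (-0.13, edgeR adjusted p 0.109).

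Some ribosomal proteins have a related gene, a paralog, whose product can take the place of its parent in some ribosomes or acts in assembly. The start sites of 2 pairs are shown, in which the parent has a tract within the window and the paralog none. The tract did not follow this pattern in general: Rpl3 had none and its paralog Rpl3l had one, as did Rpl7l1.
Rps27: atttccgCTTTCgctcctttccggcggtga (chr2:177964592-177964621, minus strand)
Rps27l: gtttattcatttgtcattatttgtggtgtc (chr8:76443643-76443672, plus strand)
Rpl22: gtagtgcgCCCCCCTCCCTTTCTgcctcct (chr5:168117946-168117975, plus strand)
Rpl22l1: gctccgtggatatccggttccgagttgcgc (chr2:113683181-113683210, plus strand)
Rps27l, a close relative of Rps27 and a known p53 target, had 168, 165 and 162 CPM in controls and 126, 120 and 117 CPM after knockdown (log2 fold change -0.45, edgeR adjusted p 4.91e-08), and Rps27 was at -0.41. The log2 ratio of Rps27l to Rps27 moved by -0.04. Rpl22l1 had 59.6, 57.4 and 59.2 CPM in controls and 57.6, 54.1 and 52.0 CPM after knockdown, overlapping at the edge, with a log2 fold change of -0.11 (edgeR adjusted p 0.130), while Rpl22 fell by 0.28 on the log2 scale. The log2 ratio of Rpl22l1 to Rpl22 was higher after knockdown by 0.18 and did not overlap between groups. Rpl7l1, a relative of Rpl7 found in precursors of the large subunit, had 119, 127 and 129 CPM in controls and 136, 135 and 134 CPM after knockdown. All its knockdown libraries were higher, but its log2 fold change of 0.11 (SE of 0.0503, adjusted p by edgeR 0.0584) did not pass the threshold. Rpl7 fell by 0.19 on the log2 scale, and the ratio of Rpl7l1 to Rpl7 was higher by 0.30. Rpl36al, which the symbol rule leaves out, had 102, 104 and 98.8 CPM in controls and 68.9, 66.6 and 63.6 CPM after knockdown, at -0.61 (edgeR adjusted p 1.70e-09), against -0.30 for Rpl36a, and their ratio was lower by 0.30. The parents Rpl39 (-0.40, edgeR adjusted p 1.83e-06) and Rpl10 (-0.26, edgeR adjusted p 3.35e-05) fell. Their paralogs Rpl39l and Rpl10l, and Rpl3l, had 11 to 30 counts per library, and their log2 fold changes of -0.28, 0.01 and -0.12 had SEs of 0.287 to 0.333. For the 7 pairs tested, the exact two-sided permutation test of the log2 ratio over libraries cannot go below 0.1. The pairs Rpl22l1, Rpl7l1 and Rpl36al reached that limit (0.233 after adjustment over the 7 pairs), and the other 4 gave exact permutation p-values of 0.4 to 0.9.

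Names and copies limit some entries. Ribosomal protein genes have many processed copies in the genome, and how reads that match several places were counted was not given in the sources used here, so single values may include reads of copies. Rps19l2 (-0.45) and Rps9l1 (-0.36) carry names that the reference gives both to a copy and, as an older name, to Rps19 and Rps9, and their means of 690 and 231 CPM in controls do not settle which was counted. Rpl37, at 4.57 CPM in controls, has the same difficulty. In all, 11 member names are both the current name of one reference gene and an older name of another, also Rps2, Rps27a, Rpl12, Rpl10, Rps4x, Rpl4, Rpl34 and Rpl34l1, so values under these names carry the same limit. Of entries that the rule leaves out, Rpl37a-ps1 was at 388 ± 4.48 CPM in the control and 306 ± 25.7 CPM in the knockdown group (SD, n = 3), or -0.34, and Rpl35al1 was at -0.42. Both were chosen after their values were seen, and both fell in edgeR's test.

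Fau and Rack1, ribosomal proteins outside the symbol rule, fell too. Fau, whose product is a fusion of a ubiquitin-like protein with a 40S protein, was at -0.30 (SE of 0.0534, adjusted p by edgeR 3.25e-05), but at -0.08 and not called with the span trend removed (edgeR adjusted p 0.124). Rack1, the signalling scaffold on the 40S head, was at -0.21 (SE of 0.0429, adjusted p by edgeR 0.000218). In both, every knockdown library was lower: Fau had 409, 390 and 366 CPM in controls and 331, 324 and 287 CPM after knockdown. Rack1 was at 705 ± 12.7 CPM in the control and 611 ± 25.6 CPM in the knockdown group (SD, n = 3).

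Other RNAs known to carry a TOP tract, most but not all of them mRNAs of the translation machinery, were compared as a list of 22. Of these, 21 were tested, 16 fell and 1 rose, a share of 76.2% lower against 30.9% of all tested genes and 45.5% of those at 100 CPM or more. The median log2 fold change was -0.16, against -0.07 at 100 CPM or more. The count of 16 was 11 with library totals, where 27.4% of all tested genes were called lower. It was 13 with the span trend removed, where 31.8% of all genes in that fit were called lower, and 13 at an adjusted p under 0.01. As single libraries were dropped it was 13 to 15, with 28.2% to 29% of all tested genes called lower. The elongation factor subunit Eef1b2 was the lowest of them. It had 346, 360 and 366 CPM in controls and 232, 211 and 208 CPM after knockdown, at -0.72 (SE of 0.0486, adjusted p by edgeR 1.74e-11). Npm1, a nucleolar chaperone of ribosome assembly, was at -0.60 and Eef1a1, which brings transfer RNAs to the ribosome, at -0.38, going from 5633 ± 93.1 to 4318 ± 48.3 CPM (SD, n = 3). Eef1d, another subunit of the same exchange factor as Eef1b2, rose by 0.33 on the log2 scale and was chosen after its value was seen.

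Genes that act on TOP mRNAs and in the mTOR pathway moved in both directions. Of 16 tested, 8 rose (50%, against 30.8% of all tested genes) and 3 fell (18.8%, against 30.9%), with a median log2 fold change of 0.21. Larp1, which binds the cap and the tract of TOP mRNAs, had 197, 198 and 187 CPM in controls and 102, 112 and 100 CPM after knockdown. No values overlapped, and at 53.9% of its control level (log2 fold change -0.89, SE of 0.0530, adjusted p by edgeR 2.01e-12) it fell further than any tested ribosomal protein gene did. Deptor, an inhibitory partner of mTOR, rose by 0.76 and Larp4b, a relative of Larp1, by 0.73 on the log2 scale (edgeR adjusted p 1.29e-10 and 9.56e-11). Rps6kb1 (0.65), Eif4ebp2 (0.53) and Mtor (0.43) were higher and Eif4ebp1 (-0.64) was lower. Mtor is the kinase itself and the other 3 encode substrates of it, and they were chosen after their values were seen. These are mRNA levels, and activity of the kinase was not measured.

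Of 8 genes for dedicated chaperones and carriers of new ribosomal proteins, 4 fell (50%, against 30.9% of all tested genes) and the other 4 did not pass, at log2 fold changes of 0.01 to 0.16. The count was 2 without control replicate 3 (28.8% of all tested genes lower), without knockdown replicate 2 (28.9%), with library totals (27.4%) and at an adjusted p under 0.01. Heatr3, which brings Rpl5 and Rpl11 into the nucleus, had 55.8, 52.4 and 55.2 CPM in controls and 23.8, 20.7 and 21.9 CPM after knockdown, with log2 fold change -1.30 (SE of 0.0722, adjusted p by edgeR 6.80e-13), or 40.7% of the control level. Pdcd2, which assists Rps2, was at -0.37 and Nap1l1, a histone chaperone that is also in the list of TOP mRNAs, at -0.15. Nap1l1 did not pass in any of those 4 alternatives.

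Gene length moved with the result. Over 12876 tested genes with a genomic span in the reference, short genes were lower after knockdown and long genes higher: without the ribosomal protein genes, the median log2 fold change went from -0.18 in the shortest of 10 equal groups by span to 0.33 in the longest. Ribosomal protein genes are short, and 50 of the 73 with a span lay in that shortest group and 15 in the next. Among 320 other genes at 100 CPM or more in those 2 groups, 60% were called lower and the median was -0.20. The 76 members at 100 CPM or more (93.4% and -0.30) lay below these short genes by less than below all genes at that level. Some of those 76 have no span or lie outside the 2 groups, so the sets differ in span. When the trend with span was removed from each library, 39 of 73 members were lower and 4 higher (Rpsa, Rpl7l1, Rpl5 and Rps18), with a median of -0.11. Of all 12876 genes in that fit, 31.8% were called lower and 30.4% higher. The 39 were all among the 62 of the 71 lowered members that have a span. In that fit Rpl41 was at -0.35, Rpl13a at -0.32, Rplp0 at -0.27 and Rpsa at 0.49. Rpl29, given a span of 893235 bp by the reference, was at -0.83 there and is not interpreted, though it is counted among the 39 and the 73. Whether the length trend arose in the cells or in the libraries was not tested.

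**Figure D5:**
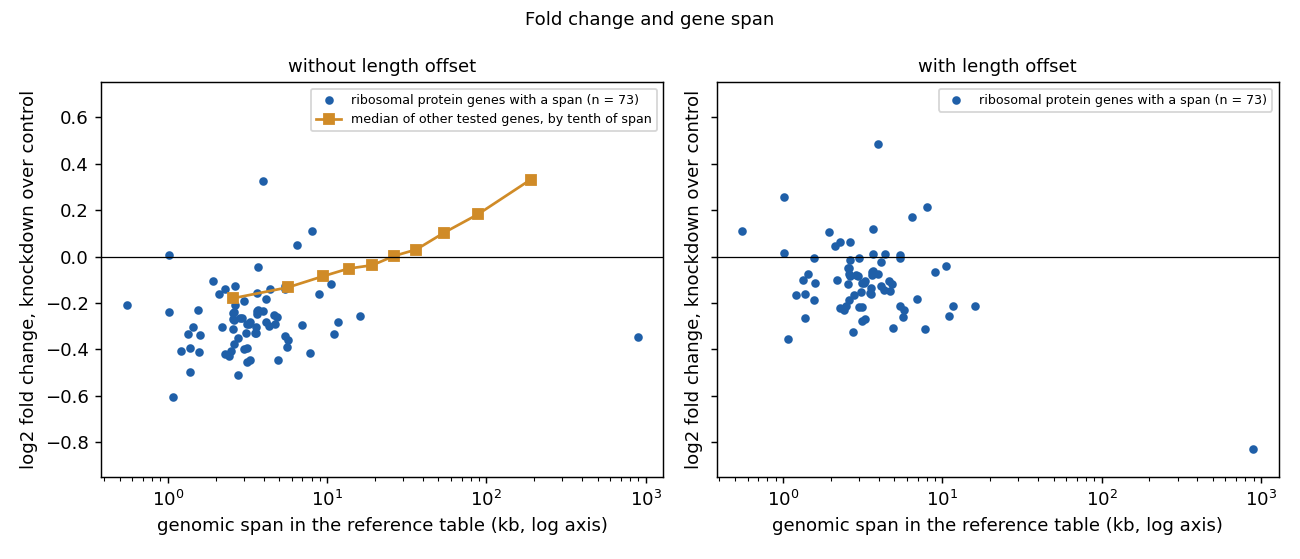
Log2 fold change of knockdown over control (vertical axis) by genomic span in kb (horizontal log axis) for the 73 members with a span (blue points), without (left) and with (right) removal of the span trend; orange squares in the left panel are medians of the other tested genes in 10 equal groups by span. Members lie mostly below the orange line on the left and closer to 0 on the right, with a median of -0.11.

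Other sequence features of the 54 matched promoters, 250 bases before to 50 after the start, were counted on both strands. The word CCGGAAG, the core of an ETS factor site, was found in 31.5% of members, 8.7% of all windows and 17.9% of other tested genes. GGGCGG, the core of an Sp1 site, was found in 57.4%, 33.1% and 61.9%. AAGATGGC, the core of a YY1 site, was found in 7.4%, 3.2% and 5.8%, TATAAA in 11.1%, 14.2% and 8.1%, and CACGTG in 7.4%, 6.4% and 9.9%. The words were searched one by one, and CCGGAAG and AAGATGGC can share the letters AAG. The 38 members with a tract beginning within 10 bases of the start had a median log2 fold change of -0.29 and the other 16 -0.25. Among the other tested genes the medians were 0.01 with and 0.02 without a tract by this definition, which at 30.6% of genes is loose. It also misses runs that start further upstream, as in Rpsa, Rplp2, Rps3 and Rpl7a among those 16. These are descriptions of the sequence near annotated starts, and no binding was measured.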

How the data were processed

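Poly-A RNA was sequenced from 3 control and 3 knockdown libraries of H9c2 cells. The authors deposited raw counts per gene, whole numbers without scaling or pooling, as the values show; FastQC 0.11.7, fastp 0.14.1 and STAR 2.5 are named in the submitters' processing notes. Counting tool, genome build, annotation, strand use and multi-mapped reads are not given in the sources used here.

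Genes passed edgeR's filter (minimum count 10, minimum total 15; 14216 genes), were scaled by TMM and compared with edgeR 4.0.16's quasi-likelihood test in R 4.3.3, two-sided, without a block, with Benjamini-Hochberg adjustment over all tested genes. Levels are CPM on the TMM scale. Pairwise chi-square per degree of freedom between replicates was 2.16 to 3.55, so no library is a copy of another. Per CPM a library holds 12.9 to 13.8 counts; 3 counts, the limit of detection used, are 0.217 to 0.232 CPM, for counting error only. Members and lists were chosen with earlier results of these data known. Named were the 8 highest and 8 lowest members, the 5 with most counts, the stalk, the 5S particle, paralogs with parents, Fau and Rack1, and the 3 smallest p of each other list. The planned naming by level per coding length was not run, as no coding lengths were at hand, and levels are not ranked between genes. Spans and promoter sequences came from RefSeq tables (GRCr8), by symbol; names shared by 2 genes (11 members) were not matched. Alternatives were other scalings, DESeq2 1.42.0, limma-voom (limma 3.58.1), other filters, the replicate block, a span offset (lowess span 0.3) and each library left out. 1 further gene of the naming rule is not reported here. Scripts were tested on simulated data.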

Additional observations from a re-analysis of the deposited data

How the results depend on the processing

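The members' median was negative in every alternative. Leaving out single libraries gave 66 to 72 lower members and medians of -0.35 to -0.24, and other scalings, tools and filters 65 to 72. Removing the span trend gave 39 of 73, and again 39 when combined with the replicate block, with medians of -0.113 and -0.114. Of all tested genes, 28.2% to 29% were called lower as single libraries were left out, and 17.7% to 31.5% with other scalings, tools and filters. With the span trend removed the share was 31.8%, or 32% with the block added. The members' share of counts stayed between 82.5% and 86.8% of the control share as single libraries were dropped. The single higher member became 3 with library totals, 2 with the replicate block, 4 after removal of the span trend (4 with the block as well), and 1 to 2 as libraries were dropped (2 without control replicate 3). Of all tested genes, 34.5% were called higher with library totals, 31% with the block, 30.4% after removal of the span trend and 28.7% without control replicate 3. Library totals moved the median of all tested genes to 0.06 and the higher share among called genes from 50.0% to 55.8%.

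Lower chaperone genes numbered 4, but 2 with library totals, 2 at an adjusted p under 0.01, and 2 to 4 as libraries were dropped (2 without control replicate 3 and 2 without knockdown replicate 2). Same-numbered libraries did not deviate together: over all tested genes the correlations were -0.00792, 0.0408 and 0.0368, and over the members 0.0358, -0.576 and -0.308. The replicate block gave 71 lower members at a median of -0.30, and Rpl7l1 (0.113) joined Rpsa as higher.

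Of 41 named genes besides Tug1, 31 held direction and call throughout. Over 685 gene and alternative pairs, 10 lost and 8 gained the call with the direction kept, and 13 changed sign, of which 2 (Rps18 after removal of the span trend, with and without the block) were then called higher. Rpl10l, near 0, was at -0.0358 by limma-voom, -0.00464 with genes of at least 1 count, -0.00572 with the block and -0.246 to 0.198 as libraries were dropped. Rps18 was at 0.00675 with library totals, 0.120 after removal of the span trend, 0.118 with the block added, and -0.0837 to 0.0253 as libraries were dropped. Rpl22l1 was at 0.105 after removal of the span trend, with the block or without. Rpl3l ranged from -0.333 to 0.180 as libraries were dropped. Rpl11, Rpl7 and Fau lost their calls once the span trend was removed. Apart from fewer genes having a span, what caused these changes was not tested. Depth limits the members under 5 CPM.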
